A study of Drosophila melanogaster with 14 samples.

Results

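Third-instar larvae of Drosophila melanogaster without working copies of 2 septin genes were compared with larvae of the control stock w1118, gene by gene, in RNA from whole animals. The comparison set the 4 libraries of the homozygous double mutant Sep2[2] Sep5[2] against the 4 libraries of w1118, 8 of the 14 samples of the series, and took in all 12586 of 17869 genes that passed 0 log2 CPM in 3 or more of the 14 libraries. The other samples were 3 libraries each of the Sep2[2] and the Sep5[2] single mutants, which entered the same fit. Flies were kept at 25 °C without treatment. Whether libraries of 1 genotype stem from different animals or vials is not stated in the labels. The p-values therefore reflect library-to-library spread alone, which may be technical. The sample labels place all animals in the third larval instar, whereas the protocol text speaks of adults, and the stage was therefore checked on markers.

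Septins bind GTP and build filaments at membranes, along microtubules and at the contractile ring that divides a cell. In Drosophila, Septin1, Septin2 and pnut form a well-studied complex, and Septin5 is a close relative of Septin2. Larvae that lack pnut are known for failed cell division in the imaginal discs, the epithelial sacs that become adult wings, legs and eyes. The third instar ends when a pulse of the steroid hormone ecdysone stops feeding, makes the salivary glands secrete glue and starts the hardening of the larval skin into a puparium. The study's title links septins to microtubule organization and to the neuromuscular junction.

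Most markers of adults were near the floor in these libraries. The yolk protein gene Yp1 stayed at or below 0.0961 CPM in the control and 0.171 CPM in the double mutant. The maxima in control and double mutant were 0.2135 and 0.570 CPM for the rhodopsin gene ninaE. For the flight muscle actin Act88F they were 0.4565 and 0.285 CPM. Another yolk protein gene, Yp3, passed the filter, at 0.770 to 2.09 CPM in the control and 0.887 to 2.905 CPM in the double mutant. The larval serum protein gene Lsp1beta lay at 6979 to 14838 CPM in the control and at 18016 to 28748 CPM in the double mutant, and the larval cuticle gene Lcp4 at 2555 to 8185 and 6270 to 10639 CPM. The levels are those of larvae in both groups. Control libraries held 18138648 to 34040709 reads and double mutant libraries 8858393 to 36206632, the fewest in replicate 3. Large ribosomal RNA of mitochondria made up 4.74% to 9.83% of control reads and 10.6% to 24.9% of double mutant reads. The first principal component, with 50.4% of the variance, placed the control libraries at -63.1 to -41.5 and the double mutant libraries at 55.0 to 85.5, with no overlap.

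The targeted genes came first as a check of the labels. Septin2 (FBgn0014029, chromosome arm 3R, positions 20586129 to 20588356, build BDGP6) lay at 59.1, 48.2, 46.6 and 67.2 CPM in the control libraries and 0.726, 0.270, 0.669 and 9.11 CPM in the double mutant libraries. Its transcript fell in every double mutant library (log2 fold change -5.54 ± 0.70 (SE), adjusted p = 6.87e-05), but replicate 4 kept a higher level than the other 3 double mutant libraries. Septin5 (FBgn0026361, arm 2R) lay at 5.24, 3.58, 4.55 and 7.84 CPM in the control libraries and 0.207, 0.116, 1.34 and 0.854 CPM in the double mutant libraries, without overlap (log2 fold change -3.31 ± 0.52 (SE), adjusted p = 2.91e-04). Replicates 3 and 4 of the double mutant stood above replicates 1 and 2 for Septin5, so each count below was also made with double mutant replicates 1 and 2 alone. pnut fell in all 4 double mutant libraries (-0.73 ± 0.19), and Septin1 fell with overlapping ranges (-0.73 ± 0.22), a call that was lost with double mutant replicates 1 and 2 alone. Septin4 was at -0.20 ± 0.18 and was not called.

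Of the 12586 genes, 2832 were called higher in the double mutant, which is 22.5% of those tested, and 2826 were called lower, also 22.5%. Together 45% of the tested genes were called in either direction at a limma adjusted p of 0.05, and each count of gene group members below is to be read against these shares. At least 2-fold changes numbered 1581 higher and 1934 lower, and at least 8-fold changes 188 higher and 130 lower. The control and double mutant libraries did not overlap for 2590 genes that were above and 2436 genes that were below the control. When libraries were scaled to total reads without mitochondrial transcripts, called the mitochondria-free scale here, 1912 genes were called higher and 4310 lower, and the median log2 fold change of all genes was -0.29 in place of -0.01. With double mutant replicates 1 and 2 alone, 2172 were called higher and 1899 lower. Counts of 3 or more group members that moved by more than 1.5 times under an alternative processing are given with the group, and so are counts of 0 to 2 that moved by at least 2 members, except those under a 2-fold minimum, which left 439 genes higher and 250 lower. In bulk samples, fewer cells of a type and less RNA per cell cannot be told apart.

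**Figure D1:**
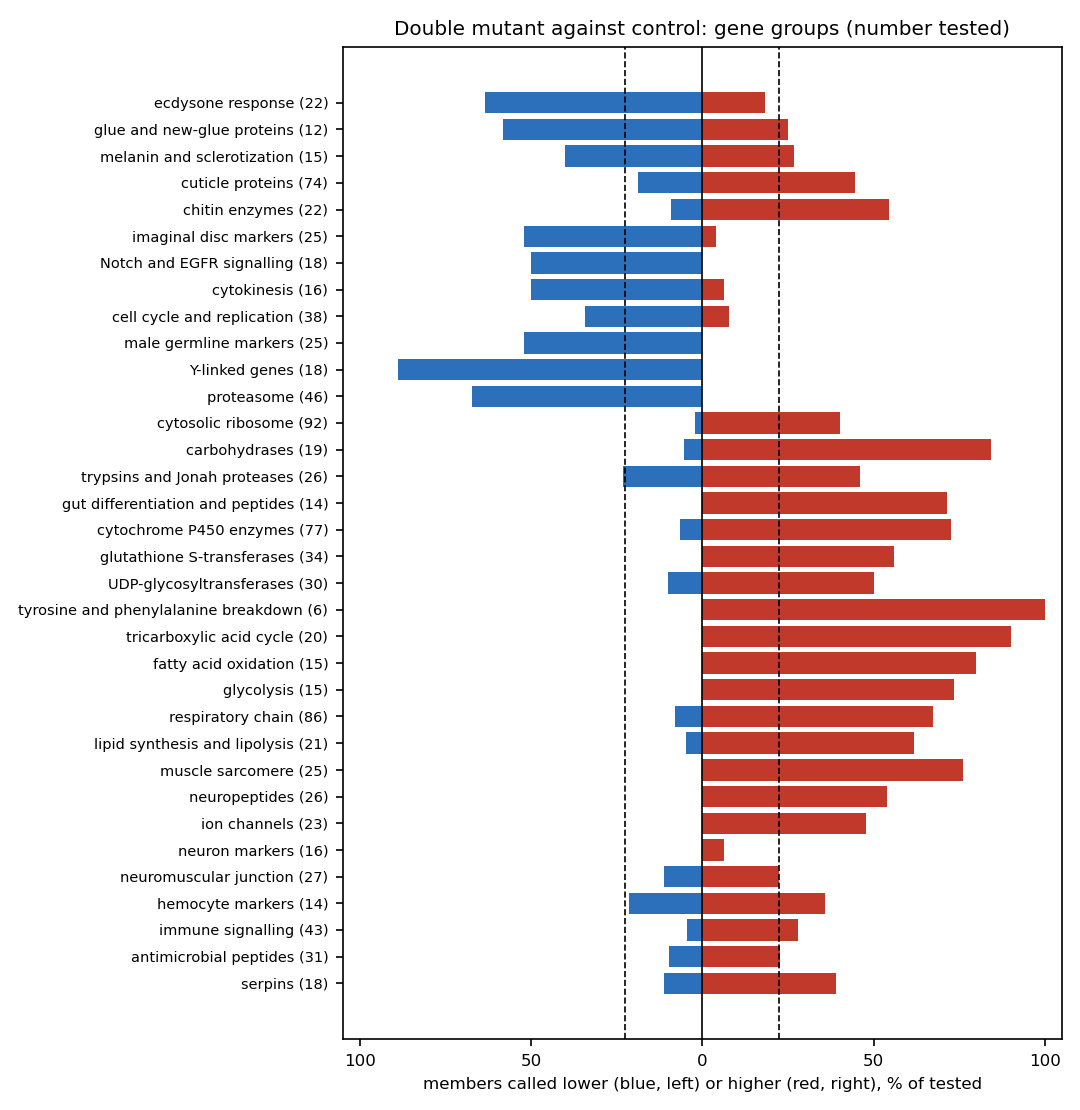
Share of tested members called higher (right) and lower (left) in the double mutant against the control, in percent, for gene groups of the report. Numbers tested stand beside each name, and dashed lines mark the share of all 12586 genes called in that direction (22.5% each). Cytochrome P450, carbohydrase, tricarboxylic acid cycle and muscle genes reach far past the line on the right, and ecdysone response, imaginal disc, proteasome and Y-linked genes on the left.

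Genes that answer to ecdysone made up one of the clearest decreases. The ecdysone response group had 4 of 22 tested members called higher and 14 called lower, with a median log2 fold change of -1.18, where the median of all genes was -0.01. Among 14 receptors and early regulators, 10 were called lower and 2 higher. The summed level of the group was 3637 to 6081 CPM in the control libraries and 1325 to 1681 CPM in the double mutant libraries. The early regulator br, a zinc finger protein needed for entry into metamorphosis, lay at 3172, 1753, 1734 and 2866 CPM in the control libraries and 361, 430.3, 413 and 373 CPM in the double mutant libraries. No double mutant library reached the lowest control library (log2 fold change -2.54 ± 0.26 (SE), adjusted p = 1.30e-05). E23, an ABC transporter that limits the ecdysone signal, lay at 171, 144, 109.9 and 224 CPM in the control libraries and 13.5, 10.4, 13.5 and 15.9 CPM in the double mutant libraries, and its groups did not overlap (log2 fold change -3.57 ± 0.47 (SE), adjusted p = 8.23e-05). ImpE1, an ecdysone-induced gene of imaginal discs, was at 95.0, 39.0, 34.6 and 90.7 CPM in the control libraries and 3.91, 5.17, 4.69 and 6.55 CPM in the double mutant libraries (log2 fold change -3.53 ± 0.45 (SE), adjusted p = 5.98e-05).

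Chosen after their values were seen, the nuclear receptor genes Eip78C (-5.41 ± 0.99) and Hr4 (-4.09 ± 0.80) had the lowest log2 fold changes of the regulators. The receptor gene EcR itself was at -1.31 ± 0.27, and its partner usp at 0.01 ± 0.17 was not called. Other regulators went the other way: Hr38 (1.93 ± 0.46) and ftz-f1 (1.18 ± 0.26) were called higher. The group of prothoracic gland and ecdysteroid synthesis genes had 4 of 15 tested members called higher and 0 called lower, or 2 lower on the mitochondria-free scale. The smallest adjusted p was that of shd, which makes the active form of the hormone (log2 fold change 0.86 ± 0.18 (SE), adjusted p = 0.00205). Of juvenile hormone and moult genes 4 of 10 were called higher, among them Jheh3, an epoxide hydrolase that breaks down juvenile hormone (log2 fold change 1.71 ± 0.43 (SE), adjusted p = 0.00542). Kr-h1, the main target of juvenile hormone, was at -0.85 ± 0.27, but the call was lost when control replicate 1 or double mutant replicate 1 or 3 was left out and with double mutant replicates 1 and 2 alone. Ecdysone response genes called higher numbered 2 on the mitochondria-free scale or without double mutant replicate 2. Juvenile hormone and moult genes called higher numbered 2 on the mitochondria-free scale or with double mutant replicates 1 and 2 alone, and 3 in place of 1 were called lower with sample weights.

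Salivary glands and fat body carried the secreted products of the late larva, and these moved in both directions. Of 12 glue and new-glue genes, 7 were called lower and 3 higher. Sgs3, a glue protein of the salivary gland, lay at 2580, 1888, 1642 and 7311 CPM in the control libraries and 971, 1898, 414 and 232 CPM in the double mutant libraries. The ranges overlapped, and control replicate 4 stood far above the other controls (log2 fold change -2.09 ± 0.62 (SE), adjusted p = 0.0133). Glue genes called lower, Sgs3 included, numbered 0 with double mutant replicates 1 and 2 alone, and 4 without control replicate 4 or double mutant replicate 3. The earlier intermoult gene ng2, by contrast, lay at 0.913, 4.19, 9.05 and 2.90 CPM in the control libraries and 96.4, 231, 84.2 and 324 CPM in the double mutant libraries and was above the control in every library (log2 fold change 5.58 ± 0.65 (SE), adjusted p = 4.00e-05). Fbp1, a receptor through which fat body takes up storage proteins, lay at 8159, 4489, 5415 and 11751 CPM in the control libraries and 2399, 4135, 1418 and 614 CPM in the double mutant libraries. It fell below the control range (log2 fold change -2.02 ± 0.49 (SE), adjusted p = 0.00479), a call lost with double mutant replicates 1 and 2 alone. The lipoprotein gene apolpp rose (1.09 ± 0.29), and this call was lost with quantile normalization. The labels do not state the age of the larvae within the instar, and its part in these differences was not tested.

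Several enzymes that colour and harden the skin fell steeply. The group of melanin and sclerotization genes had 4 of 15 tested members called higher and 6 called lower. The median log2 fold change of the 15 was 0.55, above the -0.01 of all genes. The summed level, weighted to abundant members, was 1613 to 3883 CPM in the control and 509 to 648 CPM in the double mutant libraries. The largest decreases were in the branch from tyrosine to dopamine and its conjugates. ple, tyrosine hydroxylase, lay at 1486, 1095, 639 and 1326 CPM in the control libraries and 22.3, 33.3, 21.2 and 91.8 CPM in the double mutant libraries. Ddc, which turns dopa into dopamine, lay at 326, 257, 297 and 672 CPM in the control libraries and 25.4, 46.6, 29.6 and 65.7 CPM in the double mutant libraries. b, which makes the beta-alanine joined to dopamine, lay at 166, 84.4, 36.0 and 58.0 CPM in the control libraries and 3.73, 4.51, 3.35 and 3.42 CPM in the double mutant libraries. In none of these 3 genes did a double mutant library reach the control range (ple -4.96 ± 1.13, Ddc -3.20 ± 0.53, b -4.27 ± 0.82). The gene e, whose product joins beta-alanine to dopamine, was named after its value was seen and stood at -5.58 ± 1.96, a call that was lost in 6 of the 8 fits that left out a library and with double mutant replicates 1 and 2 alone. The group also held yellow-f, a dopachrome-converting enzyme (-2.20 ± 0.33). Prophenoloxidases of blood cells did not share the decrease: PPO1 was at 0.65 ± 0.47 and PPO2 at 0.61 ± 0.55, neither called. Genes of the group called higher numbered 2 on the mitochondria-free scale, with double mutant replicates 1 and 2 alone or without control replicate 2 or double mutant replicate 4.

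Pu, the first enzyme of pteridine synthesis, makes the cofactor of tyrosine hydroxylase as well as eye pigment. It lay at 372, 446, 297 and 750.4 CPM in the control libraries and 84.0, 63.8, 62.4 and 62.3 CPM in the double mutant libraries (log2 fold change -2.70 ± 0.38 (SE), adjusted p = 1.22e-04). The pigment transporter bw fell too, from 36.5, 25.0, 15.5 and 30.5 CPM to 2.21, 1.39, 2.28 and 1.31 CPM (log2 fold change -3.82 ± 0.48 (SE), adjusted p = 5.97e-05). v, tryptophan dioxygenase of the brown pigment pathway, rose instead (1.65 ± 0.28). Enzymes that break tyrosine down rose as a group: 6 of 6 tested members were called higher, with no overlap in any of them and a median of 2.10. hgo, homogentisate dioxygenase, lay at 2.23, 1.60, 8.40 and 0.660 CPM in the control libraries and 82.1, 93.9, 109.9 and 52.5 CPM in the double mutant libraries. The lowest double mutant library stood far above the highest control library (log2 fold change 5.201 ± 0.55 (SE), adjusted p = 1.64e-05). Hpd, the step before it, lay at 2.62, 6.09, 5.77 and 2.16 CPM in the control libraries and 49.8, 61.4, 93.6 and 83.9 CPM in the double mutant libraries (log2 fold change 4.19 ± 0.42 (SE), adjusted p = 1.16e-05), and Faa, the last step, was at 2.80 ± 0.40. Hn, phenylalanine hydroxylase, which makes tyrosine, also rose (1.41 ± 0.25). In this pair of branches from one amino acid, transcripts for breakdown were higher and those for dopamine were lower.

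**Figure D2:**
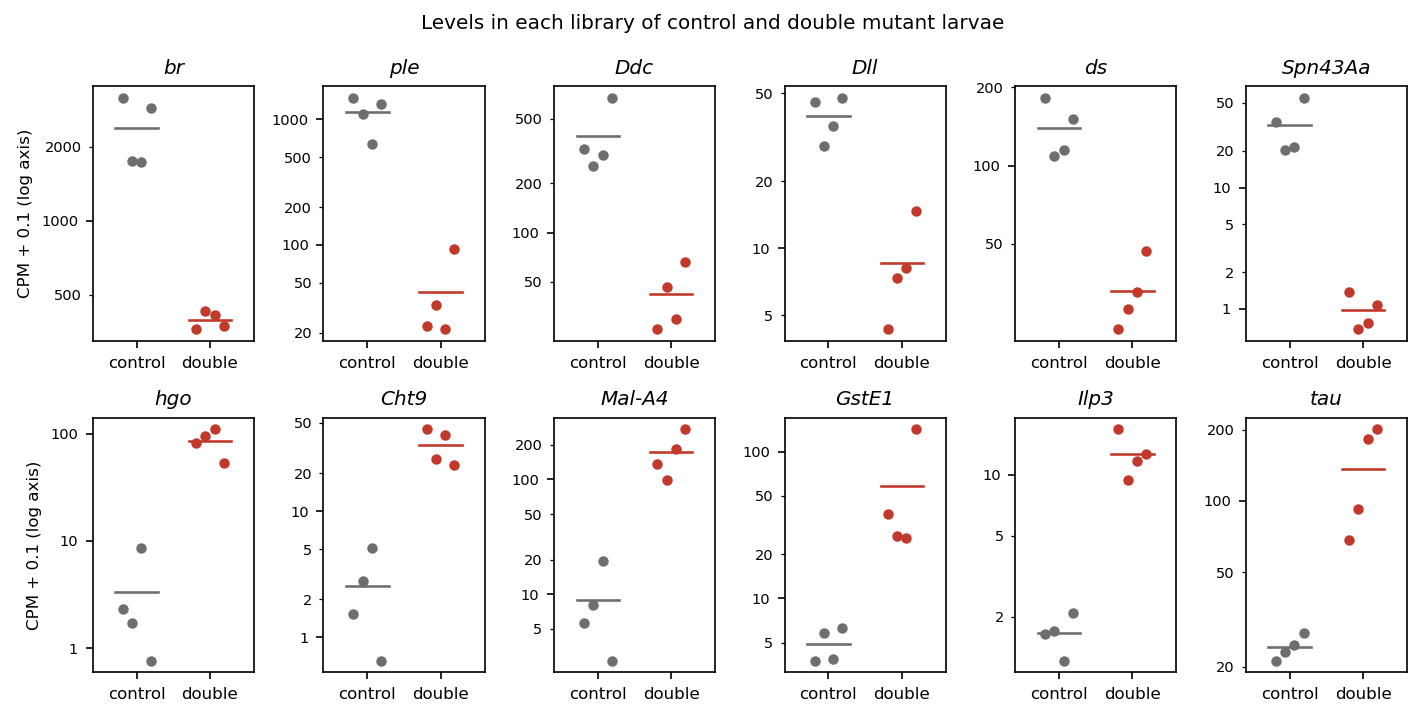
CPM (log axis, 0.1 added for drawing) of 12 genes in each control (grey) and double mutant (red) library, with 1 point per library and a bar at the group mean. br, ple, Ddc, Dll, ds and Spn43Aa lie lower and hgo, Cht9, Mal-A4, GstE1, Ilp3 and tau higher in the double mutant, with no overlap between the groups in any of them.

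Transcripts of cuticle protein genes moved in both directions. Of 125 matched cuticle protein genes 74 were tested, with 33 called higher and 14 lower. Cuticle protein genes called lower numbered 7 with double mutant replicates 1 and 2 alone, and 9 without control replicate 4 or double mutant replicate 3. Their summed level was 12987 to 29437 CPM in the control libraries and 14115 to 22348 CPM in the double mutant libraries, so the ranges overlapped. Cpr49Ac, an abundant cuticle protein with a chitin-binding domain, lay at 3372, 3940, 3913 and 10245 CPM in the control libraries and 504, 357, 352 and 497 CPM in the double mutant libraries (log2 fold change -3.51 ± 0.55 (SE), adjusted p = 2.91e-04). Cpr47Eb moved the other way and lay at 27.7, 43.1, 46.3 and 33.6 CPM in the control libraries and 390.2, 639.7, 438 and 688 CPM in the double mutant libraries (log2 fold change 3.82 ± 0.31 (SE), adjusted p = 2.49e-06). The chitin synthase kkv rose in every double mutant library (1.72 ± 0.23), as did the chitinases Cht4 (3.41 ± 0.32) and Cht9 (4.06 ± 0.48). Cht9 lay at 1.44, 2.696, 5.01 and 0.550 CPM in the control libraries and 44.5, 25.7, 39.8 and 23.1 CPM in the double mutant libraries. In all, 12 of 22 chitin enzymes were called higher and 2 lower, or 4 lower on the mitochondria-free scale, with voom or with the 8 libraries alone. Of the 6 chitinase-like Idgf growth factors 3 were called higher, Idgf6 at 1.78 ± 0.27, Idgf2 at 1.37 ± 0.25 and Idgf4 at 1.16 ± 0.25.

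Genes that pattern the imaginal discs were lower. Of 25 disc markers, 13 were called lower, each without overlap, and 1 higher, with a median log2 fold change of -0.76 and a summed level of 947 to 1532 CPM in the control libraries and 661 to 848 CPM in the double mutant libraries. Dll, the homeobox gene of the distal leg, lay at 45.5, 28.9, 35.5 and 47.6 CPM in the control libraries and 4.22, 7.21, 8.03 and 14.6 CPM in the double mutant libraries (log2 fold change -2.31 ± 0.29 (SE), adjusted p = 6.02e-05). dac, of the middle leg and eye, lay at 88.8, 51.0, 62.1 and 68.6 CPM in the control libraries and 13.3, 11.9, 22.8 and 22.0 CPM in the double mutant libraries (log2 fold change -1.98 ± 0.25 (SE), adjusted p = 5.34e-05). en, which marks posterior compartments, lay at 22.5, 13.5, 12.9 and 20.5 CPM in the control libraries and 4.08, 4.71, 4.95 and 7.12 CPM in the double mutant libraries (log2 fold change -1.71 ± 0.23 (SE), adjusted p = 1.02e-04). The double mutant libraries were below all controls in these 3 genes. Chosen after their values were seen, the wing selector vg was at -2.30 ± 0.33 and the signal wg at -1.38 ± 0.25, whereas the wing gene sd (0.01 ± 0.18) and the signal dpp (0.35 ± 0.21) were not called. ey, the eye selector, was the member called higher (0.63 ± 0.18), a call lost on the mitochondria-free scale and with double mutant replicates 1 and 2 alone. With double mutant replicates 1 and 2 alone, 14 disc markers were called lower.

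Signalling genes that act in discs were lower in part. Of 18 Notch and EGFR genes 9 were called lower and 0 higher, and of 17 Hippo and JNK genes 4 were called lower and 0 higher, or 2 higher with sample weights. N, the Notch receptor, lay at 246, 109, 135 and 139 CPM in the control libraries and 58.7, 96.3, 73.4 and 49.8 CPM in the double mutant libraries (log2 fold change -1.15 ± 0.26 (SE), adjusted p = 0.00311). Its ligand Ser was at -1.43 ± 0.21, and its target E(spl)m7-HLH lay at 7.95, 7.13, 9.05 and 14.4 CPM in the control libraries and 1.83, 2.199, 2.01 and 2.68 CPM in the double mutant libraries (log2 fold change -2.06 ± 0.24 (SE), adjusted p = 3.58e-05). ds, a giant cadherin that sets growth and cell polarity, lay at 182, 109, 114 and 151 CPM in the control libraries and 23.4, 28.1, 32.7 and 46.8 CPM in the double mutant libraries, without overlap (log2 fold change -2.10 ± 0.23 (SE), adjusted p = 2.06e-05). Its partner ft was at -1.16 ± 0.28 and the Hippo activator ex at -1.20 ± 0.25. The JNK target puc (0.16 ± 0.31) and the EGFR ligand spi (-0.23 ± 0.17) were not called. The median of all 17 Hippo and JNK genes, which lay near that of all genes, was -0.03. Mmp2, a metalloprotease that remodels basement membrane, fell alongside (log2 fold change -2.02 ± 0.21 (SE), adjusted p = 1.22e-05), while the basement membrane proteins Ndg (1.66 ± 0.29) and SPARC (1.37 ± 0.21) rose, and 7 of 15 genes of that group were called higher and 1 lower. Basement membrane genes called higher numbered 4 with double mutant replicates 1 and 2 alone. Notch and EGFR genes called lower numbered 15 on the mitochondria-free scale.

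Cell division genes were lower in part. Of 38 cell cycle and replication genes 13 were called lower and 3 higher, and of 16 cytokinesis genes 8 were called lower and 1 higher. sti, citron kinase of the contractile ring, lay at 34.4, 29.1, 28.8 and 35.1 CPM in the control libraries and 15.6, 19.2, 17.7 and 18.8 CPM in the double mutant libraries (log2 fold change -0.83 ± 0.14 (SE), adjusted p = 4.42e-04). scra, the anillin that binds septins to the ring, was at -0.70 ± 0.16, and Klp3A, a kinesin of the spindle midzone, at -1.02 ± 0.17. The groups did not overlap for these 3 genes. Rho1, the GTPase that starts the ring, was at 0.14 ± 0.25 and was not called. Neuroblast markers, the genes of dividing brain stem cells, had 1 of 11 tested members called higher and 4 called lower. Syp, an RNA-binding protein of old neuroblasts, fell (log2 fold change -1.63 ± 0.21 (SE), adjusted p = 7.17e-05), whereas the early temporal factor cas rose from 12.8, 10.6, 11.2 and 9.38 CPM to 26.6, 23.7, 42.04 and 73.4 CPM (log2 fold change 1.77 ± 0.30 (SE), adjusted p = 5.01e-04). Neuroblast markers called lower numbered 1 with centring on the median, with double mutant replicates 1 and 2 alone or without control replicate 4, double mutant replicate 1 or double mutant replicate 3, and 2 without control replicate 1. Cell cycle and replication genes called higher numbered 1 on the mitochondria-free scale. Cell cycle and replication genes called lower numbered 21 on the mitochondria-free scale.

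Male germline transcripts and the Y chromosome were lower together. Of 25 tested male germline markers, 13 were called lower and 0 higher, with a median of -1.01. The summed level of all 27 matched markers was 1458 to 2960 CPM in the control libraries and 607 to 1392 CPM in the double mutant libraries. Germline markers called lower numbered 7 with double mutant replicates 1 and 2 alone. fzo, a mitofusin of spermatids, lay at 72.3, 115, 81.5 and 77.2 CPM in the control libraries and 39.6, 24.0, 33.6 and 21.2 CPM in the double mutant libraries (log2 fold change -1.57 ± 0.26 (SE), adjusted p = 4.56e-04). betaTub85D, the beta-tubulin of the testis, lay at 279, 302, 212 and 186 CPM in the control libraries and 108, 66.2, 101 and 68.8 CPM in the double mutant libraries (log2 fold change -1.52 ± 0.29 (SE), adjusted p = 9.95e-04). Of the 18 tested Y-linked genes, 16 were called lower and 0 higher, a share of 88.9%, and their median was -1.55 where the X chromosome was near 0. The sum over the 18 genes was 56.5, 87.8, 62.4 and 48.2 CPM in the control and 30.2, 16.5, 29.7 and 22.2 CPM in the double mutant. No double mutant library reached the lowest control library in that sum. Named after their values were seen, kl-5, a dynein heavy chain of the sperm tail, was at -1.50 (8.12, 10.3, 7.99 and 4.62 CPM against 4.32, 1.70, 3.08 and 1.94 CPM), and the phosphatase gene Pp1-Y1 had 397 reads over the 4 control libraries and 0 in all 4 double mutant libraries, at least 83.8-fold lower against a floor of 3 reads over the group. The 2 Y-linked genes not called lower were FDY (0.59 ± 0.37) and Su(Ste):CR42430 (0.32 ± 0.51).

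Sex-specific genes outside the germline gave another picture. lncRNA:roX1, a male-specific RNA that coats the X chromosome, lay at 629.5, 986, 905 and 1371 CPM in the control libraries and 891, 768, 932 and 1155 CPM in the double mutant libraries, with overlapping ranges (log2 fold change -0.02 ± 0.22 (SE), adjusted p = 0.961). Of 10 dosage compensation and sex genes 0 were called higher and 1 lower, the sex regulator dsx (-0.62 ± 0.21), whose call was lost with centring on the median and when control replicate 1 or 4 or double mutant replicate 1, 2 or 3 was left out. On the mitochondria-free scale 3 genes of this group were called lower. The labels do not state the share of males in each library, and its part in the germline decrease was not tested. Testis forms of general machinery were among the lowest members of other groups: Prosalpha3T, a testis proteasome subunit, was at -1.71 ± 0.37, Hsp60B, a chaperonin of the male germline, at -1.46 ± 0.38, and Atg8b, an autophagy protein of the male germline, at -1.46 ± 0.35. Their common relatives Atg8a (0.19 ± 0.30) and Hsp60A (0.38 ± 0.21) were not called.

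**Figure D3:**
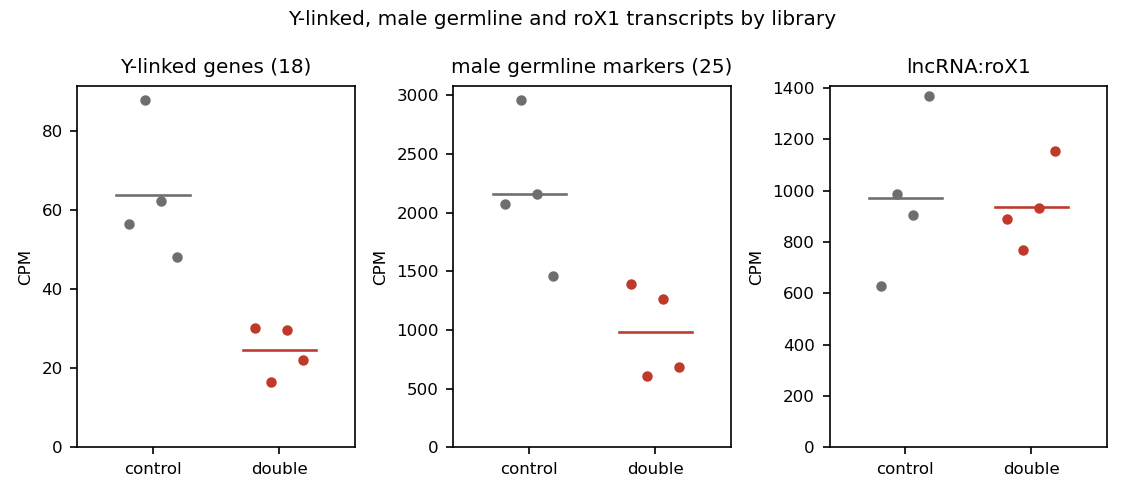
Summed CPM (linear axes from 0) in each control (grey) and double mutant (red) library for 18 tested Y-linked genes, 27 matched male germline markers, of which 25 were tested, and lncRNA:roX1. The Y-linked sum is 48.2 to 87.8 CPM in the control and 16.5 to 30.2 CPM in the double mutant, the germline sums do not overlap either, and lncRNA:roX1 overlaps.

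The gut showed the opposite picture, with most digestive groups higher. Of 19 carbohydrases 16 were called higher and 1 lower, with a median of 1.49 and a summed level of 749 to 1128 CPM in the control libraries and 2292 to 7048 CPM in the double mutant libraries. Mal-A4, a maltase, lay at 5.50, 7.90, 19.5 and 2.53 CPM in the control libraries and 138, 98.6, 183 and 275 CPM in the double mutant libraries (log2 fold change 4.55 ± 0.54 (SE), adjusted p = 3.67e-05). Amy-p, the amylase, lay at 97.7, 66.1, 128 and 76.3 CPM in the control libraries and 321, 417, 295 and 497 CPM in the double mutant libraries (log2 fold change 2.07 ± 0.27 (SE), adjusted p = 7.68e-05). LManVI, an alpha-mannosidase, was at 3.21 ± 0.64, and its replicate 4 in the double mutant reached 2648 CPM against 436, 491 and 699.5 CPM in the others. Of 7 lysozyme genes 6 were called higher and 1 lower, a family of near-identical copies that may share reads. Proteases were split: 12 of 26 trypsins and Jonah proteases were called higher, such as zetaTry (2.80 ± 0.39) and Jon99Cii (2.53 ± 0.27), and 6 lower, such as epsilonTry (-2.78 ± 0.34). The summed level of all 27 matched proteases was 10568 to 19449 CPM in the control libraries and 20649 to 30626 CPM in the double mutant libraries.

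Structural genes of the gut epithelium rose in part. Of 14 gut differentiation and peptide genes 10 were called higher and 0 lower. Gut differentiation genes called higher numbered 4 on the mitochondria-free scale, 5 with double mutant replicates 1 and 2 alone, and 6 without control replicate 4. Myo61F, a myosin of the brush border, lay at 130.5, 111, 114 and 88.7 CPM in the control libraries and 198, 201, 178 and 327 CPM in the double mutant libraries (log2 fold change 0.99 ± 0.19 (SE), adjusted p = 0.00114). mex1, of the midgut, was at 0.88 ± 0.19. Among 21 septate junction genes, 6 were called higher, 28.6% against 22.5% of all genes, and 0 lower. The median of these genes was 0.16, where that of all genes was -0.01. On the mitochondria-free scale the 2 medians were -0.12 and -0.29. Septate junction genes called lower numbered 2 with sample weights and 3 on the mitochondria-free scale. Septate junction genes called higher numbered 2 on the mitochondria-free scale or with double mutant replicates 1 and 2 alone, and 3 without control replicate 2 or double mutant replicate 2. The 3 genes with the smallest adjusted p were the components of the smooth septate junction of the gut, Tsp2A (1.26 ± 0.24), Ssk (0.63 ± 0.16) and mesh (1.06 ± 0.28). The calls of Ssk and mesh were lost with double mutant replicates 1 and 2 alone, and that of Ssk also on the mitochondria-free scale. Muc11A, a mucin of the gut lining, lay at 195, 189.8, 249 and 149 CPM in the control libraries and 551, 859, 704 and 707 CPM in the double mutant libraries (log2 fold change 1.85 ± 0.29 (SE), adjusted p = 2.82e-04), within a group of 22 peritrophic and mucin genes with 9 called higher and 3 lower, or 1 lower with the stricter filter. Of 15 Malpighian tubule and nephrocyte markers 7 were called higher and 0 lower, or 2 lower on the mitochondria-free scale, and the smallest adjusted p was that of NaPi-T, a phosphate transporter (log2 fold change 2.05 ± 0.30 (SE), adjusted p = 1.59e-04).

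Gene families that hold many detoxifying enzymes, matched by name, rose widely. Of 86 genes matched by cytochrome P450 names 77 were tested, 56 were called higher and 5 lower, and their median was 1.44. The name match also took in Cyp1, a cyclophilin gene that is not a P450 and was not called (-0.26 ± 0.22). Summed over all 86 matched genes the level was 1899 to 2442 CPM in the control libraries and 3440 to 4543 CPM in the double mutant libraries. Within that sum Cyp1 lay at 549 to 807 CPM in the control libraries and 442 to 758 CPM in the double mutant libraries. Cyp6t3 lay at 3.80, 2.99, 3.44 and 2.24 CPM in the control libraries and 33.2, 26.0, 43.8 and 28.8 CPM in the double mutant libraries (log2 fold change 3.37 ± 0.21 (SE), adjusted p = 2.49e-07), and Cyp6g2, linked to insecticide tolerance, at 6.51, 4.67, 6.02 and 4.91 CPM in the control libraries and 43.4, 29.2, 61.7 and 34.8 CPM in the double mutant libraries (log2 fold change 2.87 ± 0.22 (SE), adjusted p = 1.87e-06). The second-phase conjugating enzymes followed, with 19 of 34 glutathione S-transferases called higher and 0 lower (2 lower on the mitochondria-free scale), and 15 of 30 UDP-glycosyltransferases called higher and 3 lower. GstE1 lay at 3.65, 5.68, 3.74 and 6.16 CPM in the control libraries and 37.6, 26.4, 25.6 and 142 CPM in the double mutant libraries, with replicate 4 of the double mutant apart from the others (log2 fold change 3.20 ± 0.42 (SE), adjusted p = 7.84e-05). Ugt36D1 was among the members called lower and lay at 78.0, 72.4, 64.7 and 118 CPM in the control libraries and 10.8, 11.6, 9.37 and 8.43 CPM in the double mutant libraries (log2 fold change -3.01 ± 0.37 (SE), adjusted p = 5.04e-05). P450 genes called lower numbered 9 with sample weights, and 10, Cyp1 included, on the mitochondria-free scale. UDP-glycosyltransferase genes called lower numbered 1 with double mutant replicates 1 and 2 alone, and 7 on the mitochondria-free scale or with sample weights.

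Oxidant and metal genes moved less uniformly. Of 15 oxidant defence genes 5 were called higher and 2 lower. Sod2, the mitochondrial superoxide dismutase, rose (log2 fold change 0.76 ± 0.15 (SE), adjusted p = 0.00117), as did Prx2, a peroxiredoxin (1.24 ± 0.21), and Gclm, of glutathione synthesis (0.98 ± 0.17). Catalase, Cat, was at 0.12 ± 0.16 and was not called. Of 17 metal handling genes 5 were called higher and 4 lower: the transferrin Tsf1 lay at 179, 136, 183 and 145 CPM in the control libraries and 621, 861, 594 and 515 CPM in the double mutant libraries (log2 fold change 1.99 ± 0.25 (SE), adjusted p = 5.54e-05), the copper importer Ctr1B was at 1.91 ± 0.30, and the metallothionein MtnE fell (-1.68 ± 0.29). In purine metabolism Uro, urate oxidase of the Malpighian tubule, lay at 3.82, 10.9, 7.03 and 11.1 CPM in the control libraries and 36.4, 59.8, 66.1 and 98.7 CPM in the double mutant libraries (log2 fold change 3.01 ± 0.48 (SE), adjusted p = 3.28e-04). Gart, a multifunctional enzyme of purine synthesis, fell (log2 fold change -1.66 ± 0.32 (SE), adjusted p = 0.00103). Of 12 genes of the group 2 were called higher and 5 lower. Purine genes called lower numbered 1 with double mutant replicates 1 and 2 alone, and 3 without control replicate 1, control replicate 4, double mutant replicate 3 or double mutant replicate 4. Oxidant defence genes called higher numbered 3 on the mitochondria-free scale, with the 8 libraries alone, with the replicate block, with double mutant replicates 1 and 2 alone or without control replicate 2, control replicate 4 or double mutant replicate 4. Metal handling genes called lower numbered 2 with double mutant replicates 1 and 2 alone.

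Energy metabolism was higher across several pathways. Of 20 tricarboxylic acid cycle genes 18 were called higher and 0 lower, with a median of 0.98, and of 15 fatty acid oxidation genes 12 were called higher and 0 lower, with a median of 0.78. Mdh1, the cytosolic malate dehydrogenase, lay at 234, 264, 388 and 225 CPM in the control libraries and 686, 605, 588 and 530.2 CPM in the double mutant libraries (log2 fold change 1.15 ± 0.20 (SE), adjusted p = 5.05e-04). Fum1, fumarase, lay at 82.9, 72.3, 100.1 and 67.8 CPM in the control libraries and 165, 190.3, 195 and 206 CPM in the double mutant libraries (log2 fold change 1.24 ± 0.20 (SE), adjusted p = 3.58e-04). Echs1, enoyl-CoA hydratase, lay at 99.4, 82.1, 122.9 and 73.6 CPM in the control libraries and 298, 368, 301 and 462 CPM in the double mutant libraries, with no overlap (log2 fold change 1.92 ± 0.23 (SE), adjusted p = 4.00e-05). The peroxisomal oxidases Acox57D-p (1.64 ± 0.19) and Acox57D-d (2.27 ± 0.25) rose too. Tricarboxylic acid cycle genes called higher numbered 11 on the mitochondria-free scale.

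Sugar storage and lipid genes went the same way. Of 10 trehalose and glycogen genes 6 were called higher and 0 lower, with the smallest adjusted p in Tps1, trehalose synthase (log2 fold change 1.29 ± 0.23 (SE), adjusted p = 6.06e-04), Pgm1 (1.86 ± 0.34) and the glycogen phosphorylase Glyp (1.56 ± 0.35). Glycolysis had 11 of 15 tested members called higher and 0 called lower, and the nuclear respiratory chain 58 of 86 tested members called higher and 7 called lower. Of 21 lipid synthesis and lipolysis genes 13 were called higher and 1 lower. mag, a gut lipase, lay at 24.8, 29.2, 59.5 and 90.2 CPM in the control libraries and 316, 486, 326 and 442 CPM in the double mutant libraries (log2 fold change 3.12 ± 0.36 (SE), adjusted p = 3.07e-05). AkhR, the receptor of the fat-mobilizing hormone Akh, lay at 14.9, 12.8, 16.4 and 15.0 CPM in the control libraries and 49.4, 54.1, 54.4 and 33.3 CPM in the double mutant libraries (log2 fold change 1.67 ± 0.21 (SE), adjusted p = 5.99e-05). Desat1, a fatty acid desaturase, was at 1.54 ± 0.28. Among 19 insulin and TOR genes 4 were called higher and 2 lower. The insulin-like peptide Ilp3 lay at 1.54, 1.60, 1.11 and 1.98 CPM in the control libraries and 16.7, 9.30, 11.5 and 12.5 CPM in the double mutant libraries (log2 fold change 2.94 ± 0.23 (SE), adjusted p = 2.13e-06), whereas ImpL2, a secreted insulin antagonist, fell (-0.74 ± 0.20). Thor, a translation repressor downstream of the pathway, was at 0.61 ± 0.28 and was not called. Insulin and TOR genes called lower numbered 4 on the mitochondria-free scale or with quantile normalization, and 5 with sample weights. Insulin and TOR genes called higher numbered 2 without the filter, on the mitochondria-free scale, without trend and robust shrinkage, with the 8 libraries alone, with double mutant replicates 1 and 2 alone or without control replicate 2, control replicate 3, double mutant replicate 2 or double mutant replicate 4. Lipid genes called higher numbered 8 on the mitochondria-free scale or with double mutant replicates 1 and 2 alone. Glycolysis genes called higher numbered 7 with double mutant replicates 1 and 2 alone. Respiratory chain genes called lower numbered 4 with double mutant replicates 1 and 2 alone.

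Muscle genes rose beside these. Of 25 tested sarcomere genes 19 were called higher and 0 lower. The summed level of all 26 matched genes was 15237 to 33748 CPM in the control libraries and 42615 to 80358 CPM in the double mutant libraries. Mlc2, the myosin regulatory light chain, lay at 903, 2336, 4162 and 742 CPM in the control libraries and 9008, 8585, 6750 and 8474 CPM in the double mutant libraries. The group means differed widely, but control libraries varied by more than double mutant libraries (log2 fold change 2.35 ± 0.44 (SE), adjusted p = 9.32e-04). Act57B, an actin of body wall muscle, was at 2.06 ± 0.40. Mhc, the myosin heavy chain, lay at 2291, 1822, 4212 and 882 CPM in the control libraries and 4866, 7809, 4722 and 10134 CPM in the double mutant libraries (log2 fold change 1.72 ± 0.48 (SE), adjusted p = 0.0101), a call lost with double mutant replicates 1 and 2 alone. Of 11 calcium store genes 3 were called higher and 0 lower, a share near that of all genes, and RyR, the ryanodine receptor, was at 1.44 ± 0.46, a call lost without control replicate 4 and with double mutant replicates 1 and 2 alone. Calcium store genes called higher numbered 1 with double mutant replicates 1 and 2 alone or without control replicate 4. Control replicate 4 had the lowest Mhc, Act57B was lowest in control replicate 1, and control replicate 3 was the highest control for both.

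**Figure D4:**
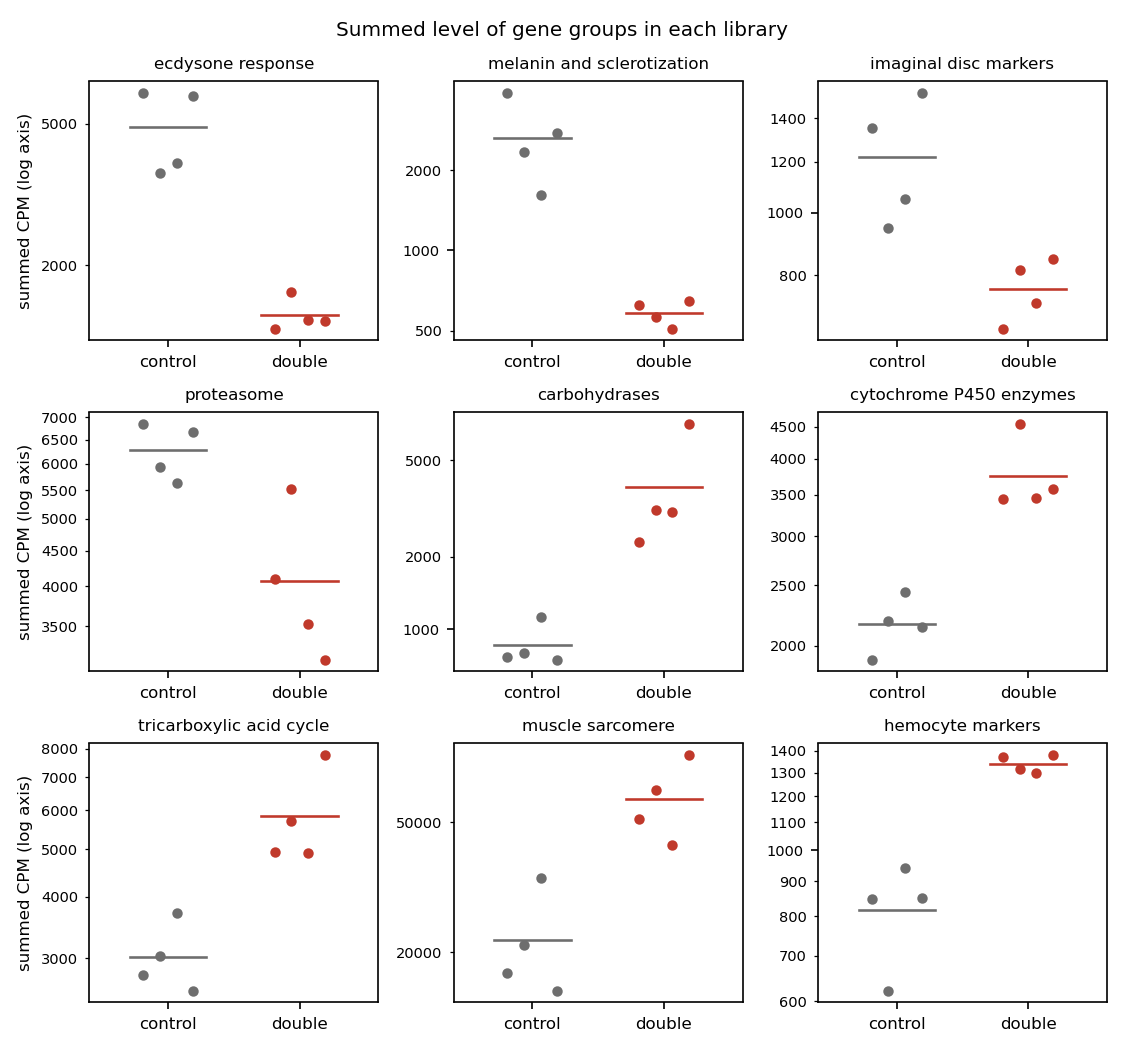
Summed CPM (log axes) of all matched members, tested or not, of 9 gene groups in each control (grey) and double mutant (red) library, 1 point per library. The P450 sum includes the cyclophilin gene Cyp1. Ecdysone response, melanin and sclerotization and disc markers lie lower and carbohydrases, P450 enzymes, tricarboxylic acid cycle, muscle and hemocyte groups higher in the double mutant without overlap, and the proteasome sum lies lower without overlap.

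Proteasome genes were lower and translation genes were, in part, higher. Of 46 proteasome genes 31 were called lower and 0 higher, with a median of -0.74. Rpn6, a lid subunit that limits assembly, lay at 259, 255, 228 and 331 CPM in the control libraries and 142, 170.4, 133 and 118 CPM in the double mutant libraries (log2 fold change -0.93 ± 0.19 (SE), adjusted p = 0.00155). Rpn10, a ubiquitin receptor, was at -0.83 ± 0.19. Proteasome genes called lower numbered 3 with double mutant replicates 1 and 2 alone, 13 without double mutant replicate 4, 17 without control replicate 1, 18 without control replicate 2, and 19 without control replicate 3. Of 92 cytosolic ribosome genes 37 were called higher and 2 lower. Ribosome genes called higher numbered 3 on the mitochondria-free scale, 5 with quantile normalization, 14 without double mutant replicate 1, 17 without double mutant replicate 3, 19 with the 8 libraries alone or without control replicate 4, 20 without control replicate 1, 21 without double mutant replicate 2, 56 with sample weights, and 62 without double mutant replicate 4. Of 18 tRNA synthetases 6 were called higher and 0 lower, with GlnRS at 0.85 ± 0.17, ThrRS at 0.94 ± 0.20 and LysRS at 0.77 ± 0.19. Synthetase genes called higher numbered 3 on the mitochondria-free scale, and 2 were called lower there. Of 22 autophagy genes 3 were called higher and 4 lower, with Atg16, a membrane-targeting factor, at 1.06 ± 0.14 and Atg7, an activating enzyme, at -1.63 ± 0.37. Autophagy genes called higher numbered 1 on the mitochondria-free scale, with double mutant replicates 1 and 2 alone or without control replicate 2 or control replicate 3, and 9 with sample weights. Autophagy genes called lower numbered 10 on the mitochondria-free scale. Heat shock and chaperone genes had 2 of 26 tested members called higher (0 on the mitochondria-free scale or without control replicate 2 or 3) and 9 called lower, with Hsp67Bc, a small heat shock protein, at -2.50 ± 0.50.

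Neuron markers were rarely called, while glia markers were called in both directions and neuropeptide and channel genes, where called, higher. Of 16 neuron markers 1 was called higher and 0 lower, and of 10 glia markers 3 were called higher and 3 lower. Of 26 neuropeptide genes 14 were called higher and 0 lower, with a median of 0.75. Nplp2 lay at 10.6, 45.8, 55.1 and 4.77 CPM in the control libraries and 107, 149, 72.3 and 325 CPM in the double mutant libraries (log2 fold change 2.87 ± 0.72 (SE), adjusted p = 0.00595). Nplp4 was at 1.69 ± 0.36 and the myosuppressin Ms at 1.18 ± 0.24. Crz, corazonin, named after its value was seen, was at 1.37 ± 0.31. Of 23 ion channel genes 11 were called higher and 0 lower. Ork1, a leak potassium channel, lay at 5.57, 4.86, 6.73 and 3.81 CPM in the control libraries and 19.7, 20.9, 26.0 and 19.5 CPM in the double mutant libraries (log2 fold change 2.04 ± 0.34 (SE), adjusted p = 4.32e-04). ClC-a, a chloride channel, was at 1.13 ± 0.18 and Ca-alpha1D, the calcium channel of larval muscle, at 0.93 ± 0.18. The neuronal sodium channel para was at 0.19 ± 0.27 and was not called. Neuron markers called higher numbered 3 without control replicate 4 and 4 with sample weights, and 2 were called lower without double mutant replicate 2 and 3 on the mitochondria-free scale. Neuropeptide genes called higher numbered 8 on the mitochondria-free scale, where 3 were called lower, and 2 were called lower with sample weights or without double mutant replicate 4. Ion channel genes called higher numbered 7 with double mutant replicates 1 and 2 alone, and 4 were called lower on the mitochondria-free scale. Glia markers called higher numbered 0 on the mitochondria-free scale, and 1 with double mutant replicates 1 and 2 alone or without control replicate 2, control replicate 3 or double mutant replicate 4. Glia markers called lower numbered 1 without control replicate 4 or double mutant replicate 3.

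At the neuromuscular junction, 6 of 27 genes were called higher and 3 lower, with a median of 0.14. The share called higher, 22.2%, was near the 22.5% of all genes, and the share called lower was 11.1%. Syt4, the postsynaptic synaptotagmin, lay at 26.4, 20.5, 18.0 and 30.6 CPM in the control libraries and 61.1, 78.2, 73.4 and 77.1 CPM in the double mutant libraries (log2 fold change 1.62 ± 0.19 (SE), adjusted p = 3.80e-05). Among 32 microtubule proteins and motors 5 were called higher and 8 lower. tau, which binds and stabilizes axonal microtubules, lay at 21.1, 23.1, 24.7 and 27.7 CPM in the control libraries and 68.6, 92.6, 182 and 201 CPM in the double mutant libraries, with replicates 3 and 4 of the double mutant above replicates 1 and 2 (log2 fold change 2.36 ± 0.28 (SE), adjusted p = 3.74e-05). ringer, a tubulin polymerization-promoting protein, lay at 15.8, 22.0, 25.5 and 20.2 CPM in the control libraries and 86.2, 85.8, 80.7 and 85.3 CPM in the double mutant libraries (log2 fold change 2.03 ± 0.17 (SE), adjusted p = 2.83e-06). stai, stathmin, which frees tubulin from microtubules, lay at 159, 196, 145 and 294 CPM in the control libraries and 65.3, 80.1, 70.6 and 72.7 CPM in the double mutant libraries and fell (log2 fold change -1.41 ± 0.23 (SE), adjusted p = 3.35e-04). Among actin regulators 2 of 32 were called higher and 5 lower, the bundling protein sn (fascin) at -1.39 ± 0.31 and the formin form3 at 1.20 ± 0.23. Actin regulator genes called lower numbered 1 without control replicate 4, 2 with double mutant replicates 1 and 2 alone, 3 without control replicate 1 or double mutant replicate 3, 8 with quantile normalization, and 13 on the mitochondria-free scale. Microtubule genes called higher numbered 3 on the mitochondria-free scale, with the 8 libraries alone, with double mutant replicates 1 and 2 alone or without control replicate 4, double mutant replicate 2 or double mutant replicate 3. Microtubule genes called lower numbered 15 on the mitochondria-free scale. Junction genes called lower numbered 1 with double mutant replicates 1 and 2 alone, and 7 on the mitochondria-free scale.

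Clock genes split. Of 11 circadian genes, 4 were called higher and 3 lower. Clk and cyc, the partners that activate the daily cycle, both fell: Clk lay at 14.6, 23.7, 15.0 and 18.0 CPM in the control libraries and 4.42, 3.97, 5.22 and 6.95 CPM in the double mutant libraries (log2 fold change -1.78 ± 0.27 (SE), adjusted p = 2.19e-04), and cyc was at -1.20 ± 0.23. The repressor vri was at -1.30 ± 0.27, and Pdp1, its antagonist, named after its value was seen, at 1.68 ± 0.38. per itself was at 0.12 ± 0.23 and was not called. The labels do not state the time of day of collection, and its part was not tested. Clock genes called higher numbered 1 on the mitochondria-free scale or with double mutant replicates 1 and 2 alone, and 2 without control replicate 4 or double mutant replicate 3. Clock genes called lower numbered 5 with quantile normalization or without control replicate 3, and 6 on the mitochondria-free scale.

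Blood cell and immune genes moved in both directions. Of 14 tested hemocyte markers 5 were called higher and 3 lower. The sum of all 15 matched markers was 622 to 943 CPM in the control libraries and 1300 to 1379 CPM in the double mutant libraries. Sr-CI, a scavenger receptor of plasmatocytes, lay at 10.4, 14.4, 17.5 and 12.1 CPM in the control libraries and 48.8, 33.6, 43.1 and 37.5 CPM in the double mutant libraries (log2 fold change 1.59 ± 0.23 (SE), adjusted p = 1.40e-04). atilla, a marker of lamellocytes, lay at 14.1, 25.6, 36.4 and 17.6 CPM in the control libraries and 87.7, 121, 53.6 and 66.4 CPM in the double mutant libraries (log2 fold change 1.83 ± 0.32 (SE), adjusted p = 5.16e-04). The plasmatocyte receptor genes eater (-0.03 ± 0.31) and NimC1 (0.09 ± 0.29), given for contrast after their values were seen, were not called. Hemocyte markers called lower numbered 0 with double mutant replicates 1 and 2 alone, and 1 without control replicate 4 or double mutant replicate 3. Of 43 immune signalling genes 12 were called higher, a share near that of all genes, and 2 lower. Tep4, a complement-like protein, lay at 89.8, 72.5, 55.0 and 47.1 CPM in the control libraries and 246, 359.5, 294 and 493 CPM in the double mutant libraries (log2 fold change 2.39 ± 0.29 (SE), adjusted p = 4.46e-05). PGRP-SC1a, an amidase that degrades bacterial peptidoglycan, was at 3.10 ± 0.42, and dl, the Toll pathway factor Dorsal, at 1.22 ± 0.19. Immune signalling genes called higher numbered 7 on the mitochondria-free scale. Those called lower numbered 6 on that scale or with sample weights, and 0 without the filter, with double mutant replicates 1 and 2 alone or without control replicate 2, double mutant replicate 3 or double mutant replicate 4.

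Antimicrobial peptides showed no common direction, with 7 of 31 tested genes called higher and 3 lower. Mtkl rose (1.89 ± 0.36), Drsl5 was at -5.29 ± 1.50 and Listericin at -1.38 ± 0.38, and the last 2 calls were lost with double mutant replicates 1 and 2 alone. Serpins, inhibitors of serine proteases, had 7 of 18 tested members called higher and 2 called lower. Spn43Aa lay at 34.3, 20.2, 21.5 and 54.9 CPM in the control libraries and 1.28, 0.579, 0.669 and 0.968 CPM in the double mutant libraries, with no overlap (log2 fold change -5.04 ± 0.61 (SE), adjusted p = 4.22e-05). Spn42De lay at 2.64, 2.83, 4.05 and 2.86 CPM in the control libraries and 17.2, 25.3, 13.5 and 22.3 CPM in the double mutant libraries (log2 fold change 2.61 ± 0.30 (SE), adjusted p = 3.25e-05). Of 17 cell death genes 5 were called higher and 2 lower, among them wgn, a receptor of the tumour necrosis factor family, which lay at 26.3, 24.4, 28.6 and 28.0 CPM in the control libraries and 46.2, 49.0, 60.1 and 64.1 CPM in the double mutant libraries (log2 fold change 1.02 ± 0.15 (SE), adjusted p = 1.46e-04), and the caspase genes Damm (1.16 ± 0.25) and Dredd (0.98 ± 0.21). The caspase inhibitor Diap1 was at 0.31 ± 0.15 and was not called. Antimicrobial peptide genes called lower numbered 1 with double mutant replicates 1 and 2 alone, and 6 with sample weights. Cell death genes called higher numbered 3 on the mitochondria-free scale, where 5 were called lower, and 4 were called lower with sample weights or the 8 libraries alone.

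The double mutant was also set against each single mutant in the same fit. The targeted transcripts differed between stocks named for the same allele. Septin2 lay at 21.7, 29.4 and 26.2 CPM in the Sep2 libraries, above every double mutant library and below every control library. Its log2 fold change in the Sep2 mutant against the control was -1.09 and was not called (adjusted p = 0.410). The fit shared 1 spread over all genotypes. The standard deviation of Septin2 was 2.05 log2 CPM in the double mutant, 0.25 in the control and 0.22 in the Sep2 mutant. Septin5 lay at 0.0681, 0.0194 and 0 CPM in the Sep5 libraries, below every double mutant library. The double mutant differed by -4.44 log2 for Septin2 and 2.31 for Septin5 (adjusted p = 0.00110 and 0.0207). Against the Sep2[2] mutant 3640 genes were called, 28.9% of those tested, and against the Sep5[2] mutant 1121, 8.91%. hgo lay at 3.75, 3.58 and 7.35 CPM in the 3 Sep2 libraries and 4.63, 2.54 and 5.00 CPM in the 3 Sep5 libraries, near the control and far below the double mutant (log2 difference 4.12 against the Sep2 and 4.36 against the Sep5 mutant, adjusted p = 3.47e-04 and 6.16e-04). Dll, at 35.7, 29.5 and 42.6 CPM and 31.7, 30.0 and 25.9 CPM, was above the double mutant in every single mutant library (log2 difference -2.19 against the Sep2 and -1.90 against the Sep5 mutant, adjusted p = 3.46e-04 and 0.00256). The same held for br (log2 difference -2.14 against the Sep2 and -1.74 against the Sep5 mutant, adjusted p = 1.92e-04 and 0.00219), ds (log2 difference -2.23 against the Sep2 and -1.999 against the Sep5 mutant, adjusted p = 5.99e-05 and 2.78e-04) and sti (log2 difference -1.18 against the Sep2 and -1.02 against the Sep5 mutant, adjusted p = 1.61e-04 and 0.00113). Single mutant levels of ple spread from 27.8 to 1619 CPM within the Sep5 libraries alone. For ple the double mutant was not called against either (log2 difference -2.52 against the Sep2 and -1.98 against the Sep5 mutant, adjusted p = 0.131 and 0.31). Sep5 replicate 3 was near the double mutant range for E23 at 16.65 CPM and for Cpr49Ac at 507 CPM. The other Sep5 libraries had 82.4 and 128 CPM of E23 and 3924 and 3543 CPM of Cpr49Ac. For br the same replicate lay at 853 CPM, above the double mutant.

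Some of the largest differences from the control had already appeared in 1 or both single mutants. The lysozyme gene LysD and the P450 gene Cyp6a17, low in the control, were called higher in both. LysD rose by 10.19 log2 in the double mutant, 9.72 in Sep2 and 7.24 in Sep5, and Cyp6a17 by 8.57, 7.09 and 7.57. Against Sep2 the double mutant was called for neither gene, and against Sep5 for LysD alone (adjusted p = 0.0444). GstE1 and Jon99Cii, given above as higher in the double mutant, were also called higher in both single mutants. IntS12, a subunit of the Integrator complex that processes small nuclear RNA, lay at 3.10, 2.59, 2.33 and 3.92 CPM in the control libraries and 75.5, 52.4, 91.3 and 44.9 CPM in the double mutant libraries (log2 fold change 4.40 ± 0.25 (SE), adjusted p = 1.01e-07). In the Sep2 libraries it lay at 29.1, 24.7 and 27.2 CPM and in the Sep5 libraries at 3.88, 2.27 and 3.06 CPM, the latter within the control range in part. No other of the 10 Integrator genes was called, although 2 were called lower on the mitochondria-free scale. epsilonTry lay at 838, 389, 669 and 375 CPM in the control libraries and 83.3, 63.9, 103 and 66.4 CPM in the double mutant libraries, at 1190, 1201 and 1726 CPM in the Sep2 and 0.545, 0.117 and 0.224 CPM in the Sep5 libraries. The Sep5 libraries were near 0, so the double mutant lay between the single mutants. Cyp6t3 was at 2.30, 2.36 and 2.25 CPM in the Sep2 and at 23.2, 17.7 and 22.996 CPM in the Sep5 libraries, the Sep5 values lying between control and double mutant. The eye colour transporter gene w, of which the control stock carries a mutant allele, lay at 1.42, 2.00, 1.82 and 2.38 CPM in the control libraries and 4.53, 4.44, 20.6 and 10.7 CPM in the double mutant libraries, with replicates 3 and 4 of the double mutant highest (log2 fold change 2.08 ± 0.43 (SE), adjusted p = 0.00162). It lay at 0.665, 1.36 and 0.702 CPM in the Sep2 and 7.90, 8.35 and 5.23 CPM in the Sep5 libraries. Genetic background cannot be told apart from the septin alleles in these stocks.

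**Figure D5:**
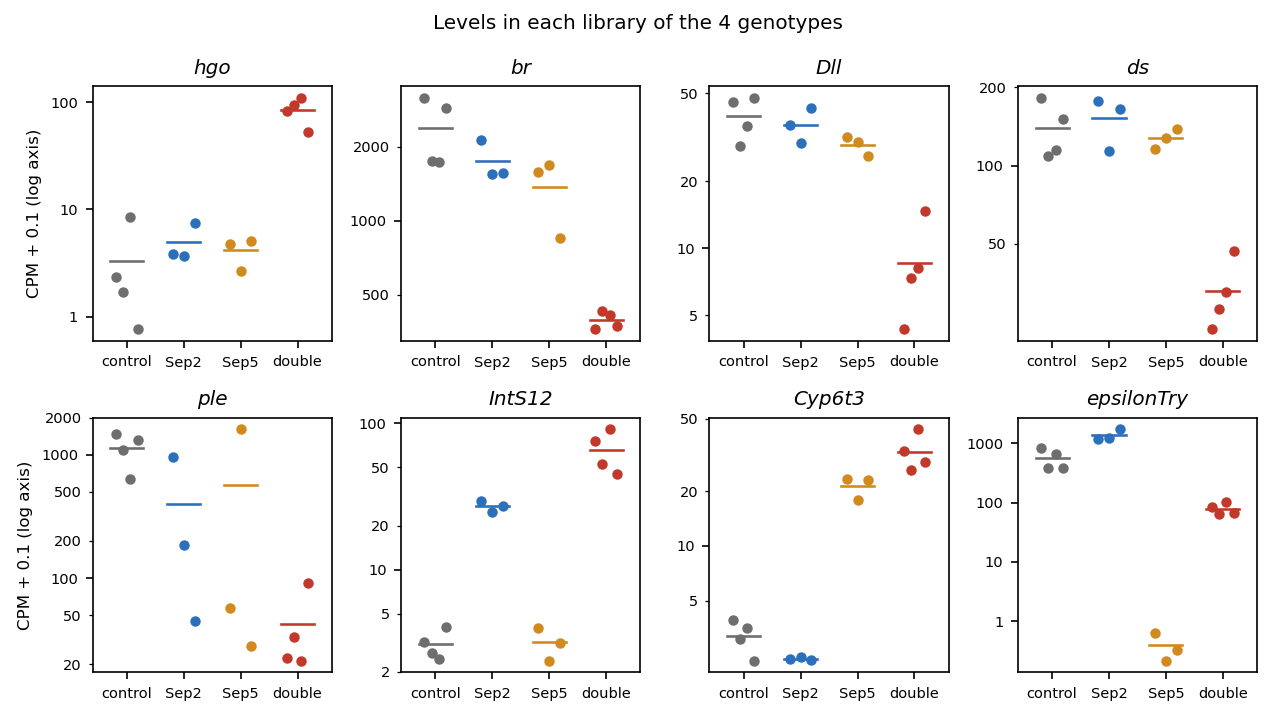
CPM (log axis, 0.1 added for drawing) of 8 genes in the control, Sep2, Sep5 and double mutant libraries, 1 point per library. hgo, br, Dll and ds set the double mutant apart from the other 3 genotypes, whereas IntS12 is high in the Sep2 and double mutants, Cyp6t3 in the Sep5 and double mutants, epsilonTry is near 0 in the Sep5 mutant and ple spreads widely within single mutants.

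Called genes were spread over the chromosomes. The share called higher was 21.5% on X, 22.0% on 2L, 23.8% on 2R, 21.5% on 3L and 23.5% on 3R, and the shares called lower on these were 16.8%, 25.9%, 21.9%, 23.1% and 23.5%. Chromosome 4 had 18 of 87 genes called higher and 7 lower. Within 1 Mb of Septin2, 48.1% of 206 tested genes were called, against 46.9% of 2892 on the rest of the arm, and within 1 Mb of Septin5 50.9% of 291 against 45.0% of 2239. By gene type, 285 of 725 non-coding RNA genes were called lower and 84 higher, while the 11714 protein-coding genes had 2513 lower and 2723 higher. The labels do not state whether counting used strand, so reads of overlapping and antisense genes cannot be told apart. lncRNA:CR42862, the most abundant non-coding RNA that the naming rule gave, lay at 2800, 2998, 3144 and 3110 CPM in the control libraries and 7381, 5567, 10108 and 11702 CPM in the double mutant libraries, against the trend of its class (log2 fold change 1.47 ± 0.23 (SE), adjusted p = 2.82e-04).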

How the data were processed

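RNA from whole third-instar larvae of 4 genotypes was measured in 14 libraries. The authors deposited 1 table of log2 CPM (counts scaled to library size) per gene and library, and the labels state TMM scaling and quasi-likelihood testing. Per the submitters' processing notes, FastQC 0.11.9, cutadapt 3.5, STAR 2.7.11b and edgeR 3.40 were used with builds BDGP6 and dm6. Read assignment to genes and strand are not given in the sources used here.

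Every column shared a floor of -3.65 log2 CPM, or 0.0797 CPM. CPM printed here is the antilog minus that floor. With a mean of 2.00 added counts, 100% of 250166 values were whole reads within 0.01, which gave the read totals. Genes above 0 log2 CPM in at least 3 of 14 libraries were kept, 12586 of 17869. They were fitted with limma 3.58.1 in R 4.3.3 (1 mean per genotype, trend and robust shrinkage, 14 libraries), and p-values were adjusted by the Benjamini-Hochberg method over all 12586 genes at 0.05. Adjusted p-values in the text are limma's, fold changes are on the deposited log2 scale, which understates low genes, and values written ± are standard errors of log2 fold changes. The code was tested on simulated data. Pairs of control and of double mutant replicates differed by a chi-square of 27.55 to 325.9 per degree of freedom, beyond counting error, so none was treated as 1 library deposited again; separate libraries from 1 RNA sample cannot be told apart from this. Whole-read precision covers counting error only.

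Gene positions came from the Ensembl 115 annotation of BDGP6, for 17790 genes. Members and lists (73 lists, 1811 matched genes) were chosen with earlier results of these data known. Summed levels of a list took in all its matched members, tested or not. Candidates for naming were set by rule. They were the septins, w and the 8 most abundant genes called in each direction at 2-fold or more without overlap. Each list added the 3 called members of at least 2 log2 CPM with the smallest adjusted p and the most abundant member. Exceptions are marked, and not every gene that the rule gave is named in the text. Alternatives were filters, an added 1 CPM, quantile, median and mitochondria-free scaling, the variance model, sample weights, voom on recovered reads, the 8 libraries alone, a replicate block, a 2-fold minimum, double mutant replicates 1 and 2 alone and each library left out. Figures were drawn with matplotlib 3.10.9 in Python 3.11.15.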

Additional observations from a re-analysis of the deposited data

Results flagged for a closer look

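In each group of 4 libraries, the distance of the highest or lowest library to its nearest neighbour was divided by the range of the group and set against Dixon's critical value. Of 382 such groups over the genes of the text other than LysD and Cyp6a17, 17 held a library past that value, where chance gives about 1 in 20. All values here are deposited log2 CPM. Control replicate 1 and double mutant replicate 4 held 4 of these values each and control replicate 4 held 3.

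In control replicate 1, the chitinase Cht4 stood highest at 4.089 (others 2.98 to 3.117), as did the caspase inhibitor Diap1 at 8.335 (7.818 to 7.852). The insulin antagonist ImpL2 was lowest there at 6.047 (6.471 to 6.534), and so was the neuropeptide Ms at 1.366 (1.942 to 2.027). Control replicate 2 was lowest for the sodium channel para at 3.076 (3.678 to 3.698), and control replicate 3 was highest for the chitin deacetylase verm at 8.757 (7.836 to 7.846). Control replicate 4 was highest for the cuticle gene Cpr49Ac at 13.32 (11.72 to 11.94) and for dl at 6.551 (6.435 to 6.451), and lowest for the junction gene Tsp2A at 4.331 (5.363 to 5.455).

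Among double mutant libraries, replicate 1 was highest for Pu at 6.393 (5.962 to 5.997). Replicate 2 was highest for Syp at 8.754 (8.407 to 8.458) and for sn at 5.641 (4.936 to 4.979), and replicate 3 was lowest for ringer at 6.337 (6.416 to 6.43). Replicate 4 was highest for Eip78C at 2.411 (1.609 to 1.689), the chaperonin Hsp60A at 8.206 (7.237 to 7.365) and the clock gene Pdp1 at 7.247 (5.943 to 6.161), and lowest for the hemocyte receptor eater at 1.919 (3.039 to 3.224).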

How the results depend on the processing

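Neither count of called genes moved by more than 1.5 times under most of the 21 alternatives. The exceptions were the mitochondria-free scale, with 4310 genes lower in place of 2826 (and 1912 higher), and a 2-fold minimum, with 439 higher and 250 lower. On the mitochondria-free scale 30.7% of called genes were higher, against 50.1% as reported. Leaving out each library gave 2487 to 2678 higher and 2325 to 2687 lower. The replicate block gave 2858 higher and 2848 lower and ended no call among the 165 called genes counted below. Same-numbered control and double mutant libraries correlated in their deviations at -0.125, -0.355, 0.012 and 0.197, so the numbers were not taken to pair them. Voom on recovered reads gave 2878 higher and 2783 lower.

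No direction reversed among 165 called genes in the text, LysD and Cyp6a17 not counted. Of the 165, 55 were called under all 21 alternatives. The 2-fold minimum ended 110 calls, double mutant replicates 1 and 2 alone 14, quantile normalization 6, the mitochondria-free scale 3 and centring 2. Leaving out 1 library ended between 0 and 4. The cause was not tested for these, except that replicates 1 and 2 alone and the left-out libraries had fewer samples. Depth was lowest in double mutant replicate 3, and genes near the floor were the least precise.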

Other observations

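Genes of the mitochondrial genome and of the mitochondrial ribosome were called higher in part. Of 14 genes of the mitochondrial genome 3 were called higher, 21.4% against 22.5% of all genes, and 0 lower. The 3 were the large ribosomal RNA, mt:lrRNA, the cytochrome oxidase subunit mt:CoI (0.96 ± 0.26) and mt:CoII (0.88 ± 0.24). All 3 calls were lost with quantile normalization. Leaving out control replicate 4 gave 6 called higher, and the mitochondria-free scale, by its construction, 0. Of 72 nuclear genes of the mitochondrial ribosome, which translates those messages, 21 were called higher (29.2%) and 0 lower, with a median log2 fold change of 0.36. mRpL4 lay at 10.5, 9.61, 11.5 and 10.3 CPM in the control libraries and 18.1, 19.1, 15.5 and 21.2 CPM in the double mutant libraries (log2 fold change 0.81 ± 0.15 (SE), limma adjusted p = 0.00106). Those called lower numbered 2 with sample weights and 3 on the mitochondria-free scale. The number called higher was 5 on the mitochondria-free scale, 10 with double mutant replicates 1 and 2 alone, 11 without control replicate 1 and 13 without double mutant replicate 1.

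Families with several copies moved in both directions. Of 8 tubulin genes 3 were called higher and 3 lower. alphaTub85E lay at 12.8, 10.9, 17.3 and 11.7 CPM in the control libraries and 45.5, 44.6, 40.7 and 65.8 CPM in the double mutant libraries (log2 fold change 1.89 ± 0.22 (SE), limma adjusted p = 3.07e-05), and betaTub97EF rose likewise (1.98 ± 0.26). The general tubulin alphaTub84B was at 0.14 ± 0.18 and was not called. Of 31 genes of the vacuolar proton pump, which acidifies organelles and lumens, 12 were called higher and 6 lower. The lower ones with the smallest adjusted p were Vha100-3 (-1.81 ± 0.29), Vha68-3 (-1.42 ± 0.32) and VhaPPA1-2 (-1.56 ± 0.36), and the most abundant, Vha16-1, was not called (0.14 ± 0.22). Pump genes called higher numbered 4 with double mutant replicates 1 and 2 alone, 5 on the mitochondria-free scale, 6 without control replicate 1, and 7 with quantile normalization or without double mutant replicate 2. Of 19 tested odorant-binding protein genes 9 were called higher and 3 lower. Obp83ef lay at 18.8, 13.9, 12.6 and 23.4 CPM in the control libraries and 2.25, 2.59, 1.07 and 2.22 CPM in the double mutant libraries (log2 fold change -3.06 ± 0.39 (SE), limma adjusted p = 6.44e-05), while Obp49a rose (2.17 ± 0.36). The most abundant, Obp99b, was at 0.13 ± 0.35. Without the filter 17 were called higher.

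Ribosome biogenesis genes had 1 of 21 called higher and 0 lower, but 2 were called lower with sample weights and 8 on the mitochondria-free scale. Of 16 genes of endoplasmic reticulum stress 2 were called higher and 1 lower, or 3 lower with sample weights or on the mitochondria-free scale. Of 18 genes of mitochondrial dynamics and import 3 were called higher and 2 lower, with 1 higher with double mutant replicates 1 and 2 alone and 6 lower on the mitochondria-free scale. Of 13 eye pigment genes 3 were called higher and 2 lower. Of 11 tracheal and epidermal markers 2 were called higher, among them the tracheal chitin deacetylase verm (1.37 ± 0.28), and 2 lower, or 0 lower with double mutant replicates 1 and 2 alone or without control replicate 4. Larval serum and storage proteins had 6 of 10 called higher and 1 lower, or 1 higher with quantile normalization and 3 higher without control replicate 2. The puff gene Eig71Ee was at -1.03 ± 0.60 with overlapping groups and was not called. Of the 6 tested genes of its group 2 were called lower, or 0 with double mutant replicates 1 and 2 alone.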
